A study of Nothobranchius furzeri with 15 samples.

Results

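Brains exposed to the higher of 2 rotenone doses, 150 pM, were compared with brains exposed to the lower dose, 15 pM, by RNA-seq in the turquoise killifish (Nothobranchius furzeri). The comparison holds 9 of the 15 libraries of the series, 5 at 150 pM and 4 at 15 pM, each assigned by the treatment given in its labels. All came from brain of male fish of the strain GRZ, a short-lived laboratory strain, at 9 weeks of age. The other libraries are 5 from fish given the solvent DMSO and 1 labelled 150 pM whose dose is in doubt, because its title number, 1, precedes the 15 pM titles (2 to 5) while the 150 pM titles run from 8 to 12, and because the series description counts 5 libraries per group. That library entered no main fit. The labels give neither the length of treatment nor tanks, dates or batches, so anything shared by the fish of a dose cannot be told apart from the dose. The labels do not say whether different libraries are different fish, so the p-values rest on library-to-library spread, part of which may be technical.

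Rotenone is a plant-derived inhibitor of mitochondrial complex I, the enzyme that passes electrons from NADH to ubiquinone and pumps protons for ATP synthesis. Blocking it lowers respiration and raises the reduced state of upstream carriers, and neurons, with their high energy demand, are a tissue in which strong inhibition is known to be toxic. Turquoise killifish are annual fish used in ageing research, and complex I has been studied in this species as a modifier of lifespan. The comparison asked how the brain transcriptome at a higher dose of the inhibitor stood against that at a lower dose. The deposited tables identify genes by number only, and 0 of the 26739 identifiers matched the gene table used for names. Roles of single genes are therefore not given, the labelled tissue could not be checked against brain markers by name, and 4 identifiers are printed.

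Total counts were close between the doses, at 19401441 to 23200181 per library at 150 pM and 19719081 to 22527848 at 15 pM (exact permutation p = 0.984, adjusted 0.984 over 4 library properties). Genes with at least 1 count numbered 21618 ± 77.8 at 150 pM and 21554 ± 114 at 15 pM (SD, n = 5 and 4, exact permutation p = 0.349, adjusted 0.466). Profiles of log2 CPM (a count scaled to library size, with a prior count of 2) differed as a whole by a pseudo-F of 6.09. The split of the libraries by dose took up 46.5% of the variation. That share depended on the measure, at 35.5% with genes scaled to unit variance and 70.2% with 1 minus Spearman's rho as the distance. The exact permutation p was 0.00794, the smallest that 5 libraries against 4 can give. On the first principal component, with 51.5% of the variance, the 150 pM libraries lay between 24.2 and 42.9 and the 15 pM libraries between -67.3 and -12.2, without overlap.

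A large part of the brain transcriptome measured here differed between the doses, and most of the larger differences were rises at 150 pM. Of 18957 genes tested, 4933 (26.0%) passed an adjusted p of 0.05 in edgeR's quasi-likelihood test. At 150 pM 3116 of them (16.4% of the genes tested) were higher and 1817 (9.58%) were lower than at 15 pM. The called rises had a median log2 fold change of 0.63, a 1.55-fold difference, whereas the called falls had a median of -0.30, which is 1.23-fold. In bulk brain tissue, fewer cells of a type and less RNA per cell cannot be told apart. With other scalings or filters the balance moved: 63.2% of calls were higher here, 50.5% with upper-quartile scaling, 50.2% without the low-count filter, 53.2% with the DMSO libraries in the fit and 77.2% at an adjusted p of 0.01. It turned, to 43.2% (2225 rises and 2923 falls), when each library's trend with gene length was removed without keeping the library's scaling; with the scaling kept it was 63.8%.

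Fold size separated the directions more than their counts did. At least 2-fold differences were fitted for 930 called rises (4.91% of the genes tested) and 77 called falls (0.406%). Of the 18957 genes tested, 313 were called rises and 14 called falls of 4-fold or more. At 8-fold or more there were 80 rises and 11 falls, and some of these 11 lie in nearby rows and moved together (described below). Rises of at least 2-fold belonged to genes of modest level, with a median of 14.9 CPM at 150 pM and 4.12 CPM at 15 pM, against 18.6 and 17.8 CPM over all genes tested. In 153 of those 930 genes the 15 pM mean lay below 1 CPM and the 150 pM mean at or above it. Falls of at least 2-fold had medians of 1.68 CPM at 150 pM and 7.93 CPM at 15 pM, below those of the rises at 150 pM and above them at 15 pM. The dose at which each median is lower follows from the direction chosen. In 26 of the 77 falls the 150 pM mean alone lay below 1 CPM.

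**Figure D1:**
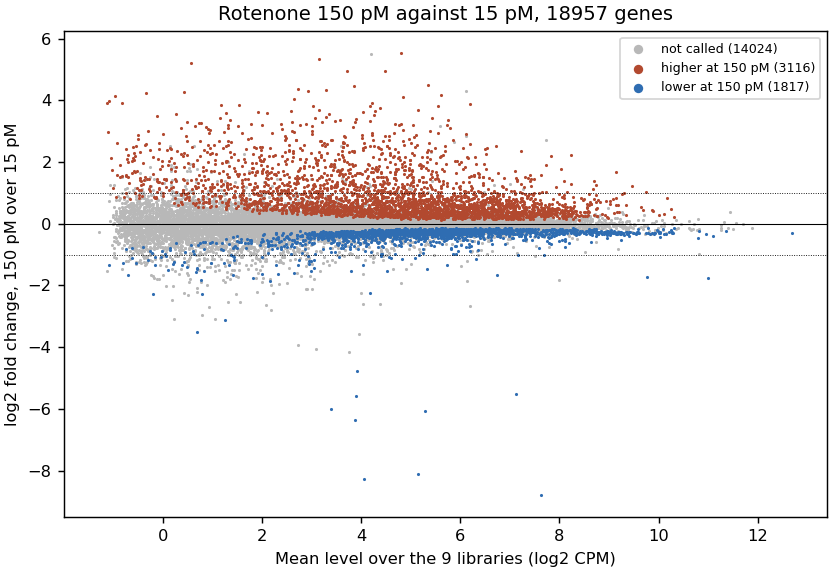
Fitted log2 fold change of 150 pM over 15 pM (vertical axis) against the mean log2 CPM over the 9 libraries (horizontal axis) for 18957 genes, with 3116 called rises in red, 1817 called falls in blue and the remaining genes in grey; dotted lines mark 2-fold. Rises beyond 2-fold occur at most levels, while the called falls form a band close to 0 with a few genes below -4.

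Most called genes kept the libraries of the doses fully apart. Every 150 pM library lay above every 15 pM library in 2747 of the 3116 called rises, and below in 1455 of the 1817 called falls. Over all genes tested, the called genes included, 15.4% showed the first pattern and 9.53% the second. The called genes were chosen for a difference between these same libraries, so their separation largely follows from that choice. A wider gap, with the nearest libraries of the doses at least 2-fold apart, was found in 253 called rises and 9 called falls. These are 8.12% of the called rises and 0.495% of the called falls, and the pattern was not counted over all genes tested. Called rises together took 21.8% to 23.1% of all counts in the 150 pM libraries and 13.7% to 16.8% in the 15 pM libraries. Called falls took 16.6% to 17.4% of the counts at 150 pM and 21.0% to 22.3% at 15 pM. These shares describe genes chosen by the same comparison and carry no test.

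The 4 identifiers are described in full, in each direction the gene with the largest fold and the gene with the smallest p, among 3964 called genes with a mean of at least 1 CPM at each dose and no overlap between the libraries. Nfu_g_1_019702 (length 5088 bases), the largest rise of that set, stood at 43.6, 66.7, 63.2, 49.5 and 23.2 CPM in 150 pM replicates 1 to 5, against 0.758, 1.01, 1.91 and 0.661 CPM in 15 pM replicates 1 to 4. The lowest 150 pM library, replicate 5, was still far above the highest at 15 pM, replicate 3. Means were 49.2 ± 17.4 CPM at 150 pM and 1.08 ± 0.568 CPM at 15 pM (SD, n = 5 and 4). The fitted difference was 5.52 ± 0.425 log2 units (SE), or 45.9-fold, at an adjusted p of 0.000226 (edgeR). That fold rests on few counts at 15 pM, 16, 21, 37 and 15 in replicates 1 to 4. Without 15 pM replicate 3 the mean at that dose would lie below 1 CPM, so the gene met the minimum only through that library. The fit without it gave 5.92 log2 units.

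Nfu_g_1_007596 (2190 bases) had the smallest p among the rises and a small spread within each dose. Its levels were 44.3, 45.4, 48.9, 41.0 and 42.9 CPM in 150 pM replicates 1 to 5, against 15.8, 19.3, 17.2 and 17.1 CPM in 15 pM replicates 1 to 4. The lowest library at 150 pM, replicate 4, was more than 2-fold above the highest at 15 pM, replicate 2. The means were 44.5 ± 2.97 CPM at 150 pM and 17.3 ± 1.45 CPM at 15 pM (SD, n = 5 and 4); the difference of 1.36 ± 0.0757 log2 units (SE) had an adjusted p of 8.31e-05 (edgeR). Per kilobase of length, its level at 150 pM was 20.3 CPM, above the 9.68 CPM of Nfu_g_1_019702.

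Nfu_g_1_007753 (1416 bases), the largest fall of the set, was low in most 150 pM libraries. It held 3, 95, 14, 11 and 13 counts in 150 pM replicates 1 to 5 (0.152, 4.1, 0.666, 0.569 and 0.634 CPM), against 2658, 1086, 1409 and 2141 counts in 15 pM replicates 1 to 4 (125.9, 52.0, 72.6 and 94.4 CPM). Replicate 2 stood above the other 150 pM libraries and still below every library at 15 pM. Means were 1.22 ± 1.62 CPM at 150 pM and 86.2 ± 31.6 CPM at 15 pM (SD, n = 5 and 4). Its fitted difference came to -6.07 ± 0.638 log2 units (SE), at an adjusted p of 0.000511 (edgeR). Without 150 pM replicate 2 the mean at 150 pM was 0.505 CPM and the difference -7.39 log2 units, so the gene met the minimum of 1 CPM at each dose only through that library. With the library in doubt counted as 150 pM the difference was -3.06 log2 units and the edgeR adjusted p 0.105. Over all 24 alternatives the adjusted p ranged between 9.43e-12 and 0.105.

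Nfu_g_1_018392 (3598 bases) had the smallest p among the falls. It was measured at 7.38, 6.04, 6.23, 8.68 and 9.12 CPM in 150 pM replicates 1 to 5, against 19.6, 20.1, 26.6 and 20.7 CPM in 15 pM replicates 1 to 4. The groups did not overlap, and 15 pM replicate 3 lay above the other 15 pM libraries. Means were 7.49 ± 1.4 CPM at 150 pM and 21.8 ± 3.25 CPM at 15 pM (SD, n = 5 and 4), which differ by -1.54 ± 0.149 log2 units in the fit (SE, adjusted p of 0.000368, edgeR). Reads that any of the 4 genes shares with a close copy or with an overlapping antisense gene cannot be told apart in these counts.

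**Figure D2:**
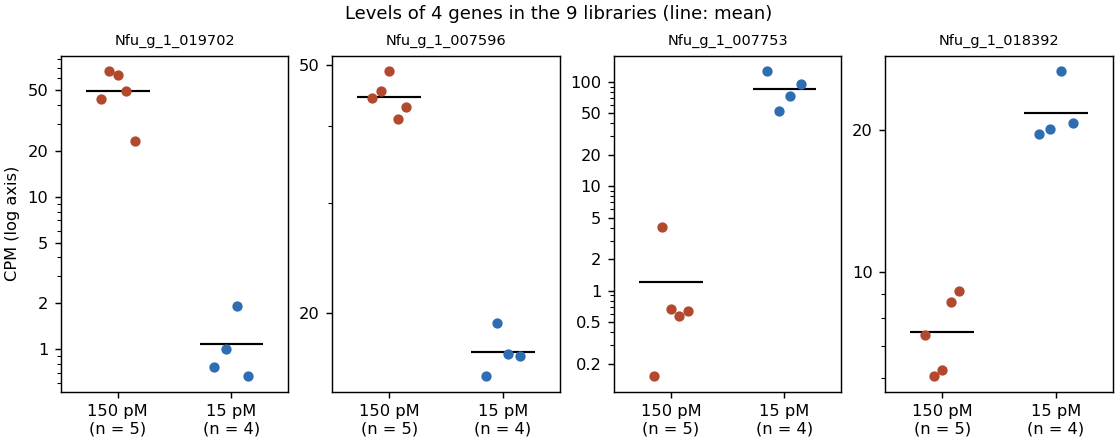
CPM of the 4 described genes on log axes, 1 point per library, with 150 pM (n = 5) left of 15 pM (n = 4) and a line at each mean. In each panel all points of one dose lie apart from all points of the other; Nfu_g_1_019702 and Nfu_g_1_007596 are higher at 150 pM, Nfu_g_1_007753 and Nfu_g_1_018392 lower.

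The rows that surround Nfu_g_1_007753 in the deposited table moved with it, a pattern noticed after the values were seen. Among the 12 nearest rows, 6 on each side, 9 genes were tested and 6 were called, every one lower at 150 pM by at least 2-fold and 4 of them by a log2 fold change below -5. Those 4 and Nfu_g_1_007753 itself are among the 11 called falls of at least 8-fold. The steepest, 444 bases long, ranged from 0.523 to 2.0 CPM at 150 pM and from 257 to 899 CPM at 15 pM, a fitted difference of -8.78 log2 units at an adjusted p of 0.000161 (edgeR). Another of 435 bases ranged from 0.0431 to 0.195 CPM at 150 pM and from 23.3 to 62.6 CPM at 15 pM (-8.26 log2 units, adjusted p of 8.31e-05, edgeR). A further 2 of the 6 were abundant genes of 816 and 885 bases whose dose ranges overlapped, 535 to 1320 CPM at 150 pM and 994 to 8460 CPM at 15 pM for the gene of 816 bases. The 12 rows nearest to each of the other described genes held 1 called gene of the same direction apiece, of 10, 11 and 10 genes tested. Beside Nfu_g_1_007596 3 genes were called, and the rest of these were lower at 150 pM. Over all genes tested, 16.4% were called higher and 9.58% lower. Table order follows no stated rule, so closeness in the table is not shown to be closeness in the genome.

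Long genes stood out among the rises. In the longest of 4 classes of nearly equal size (4723 to 88570 bases) 1309 genes were called higher and 239 lower at 150 pM, so that 27.6% of the genes tested there rose and 5.045% fell. In the 3 shorter classes 11.7% to 14.6% rose and 10.3% to 12.3% fell. Called rises of the longest class had a median of 0.50 log2 units, against 0.93 among those of the shortest class (18 to 1341 bases). Rises of at least 2-fold were spread more evenly, with 258, 264, 206 and 202 from the shortest class to the longest.

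The relation of expression to gene length, taken relative to the mean of the 9 libraries, differed between the doses by 0.24. Because each gene is centred on those same libraries, opposite signs at the doses follow from the centring. Only the difference between the doses is informative, and a value near 0 does not mean that a library has no relation to length. Spearman's rho between a gene's length and its deviation from the mean of the 9 libraries, taken across genes within a library, was 0.113 ± 0.0327 at 150 pM (0.0651 to 0.157) and -0.127 ± 0.0903 at 15 pM (-0.197 to 0.00496; SD, n = 5 and 4). It was near 0, at 0.00496, in 15 pM replicate 3 and between -0.197 and -0.147 in the other 15 pM libraries. The doses did not overlap, and the exact permutation p was 0.00794, the smallest possible, or 0.0159 adjusted over 4 library properties. With the trend of each library removed and its scaling kept, edgeR called 2779 rises and 1576 falls, and 3890 of the 4933 calls were kept in their direction. The longest class then held 820 rises and 541 falls. Its share of rises among calls was 60.3%, against 63.4% to 68.7% in the other classes. Without keeping the scaling, the longest class held 623 rises and 882 falls, and falls outnumbered rises in the 3 shorter classes too.

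Calls were also spread unevenly over expression level. In the lowest of 4 level classes (mean up to 5.20 CPM) 10.5% of the genes tested rose and 2.41% fell at 150 pM, and in the highest (51.9 to 6600 CPM) 21.6% rose and 15.3% fell. In the highest class the balance turned with the length trend removed: edgeR called 718 rises and 740 falls with the scaling kept and 514 rises and 1211 falls without, against the 1024 rises and 724 falls reported here. The called rises had a median of 1.26 log2 units in the lowest class and 0.44 in the highest. Rises of at least 2-fold numbered 318, 282, 227 and 103 from the lowest level class to the highest. The smallest fold that can pass the test is larger at low counts, and the cause of the difference in medians was not tested. In the highest level class 34.2% of 2276 genes of the longest class rose and 5.89% fell, against 4.71% and 33.5% of 510 genes of the shortest class. In the lowest level class 9.67% of 517 long genes rose and 0.58% fell, against 13.3% and 2.61% of 1837 short genes, so that rises outnumbered falls at both lengths. Of the short genes 13.9% rose and 8.2% fell in the second level class, and 8.52% rose and 16.7% fell in the next. The 50 most abundant genes of each library took 8.76% ± 0.0578 of its counts at 150 pM and 10.06% ± 0.879 at 15 pM (SD, n = 5 and 4, exact permutation p = 0.00794, adjusted 0.0159).

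**Figure D3:**
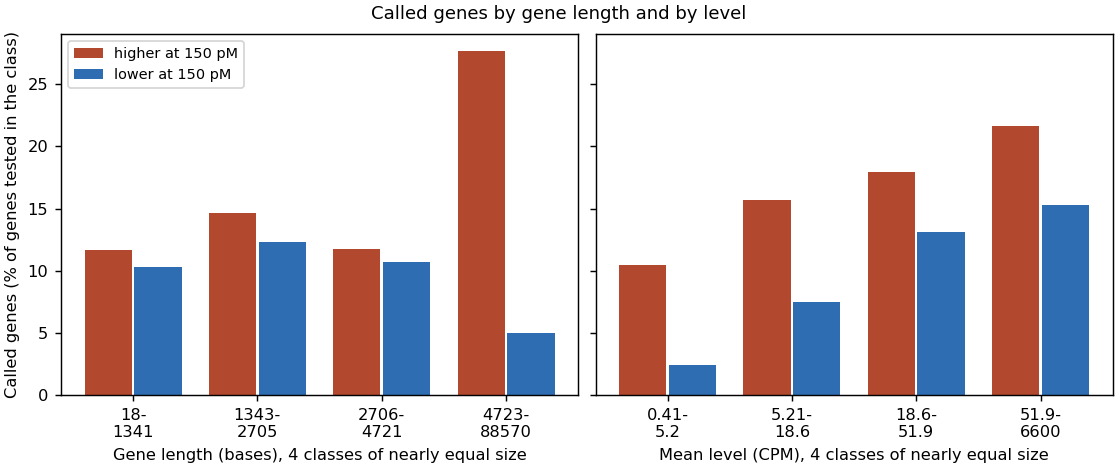
Share of the genes tested that were called higher (red) or lower (blue) at 150 pM, in percent, for 4 classes of gene length (left panel, bases) and 4 classes of mean level (right panel, CPM). The longest class has 27.6% rises and 5.045% falls, and both directions are more frequent at higher levels.

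The 4 libraries at 15 pM varied more among themselves than the 5 at 150 pM. The median SD of log2 CPM per gene was 0.126 at 150 pM and 0.196 at 15 pM. Without 15 pM replicate 3 it was 0.119 at 15 pM, and without another 15 pM library it lay between 0.193 and 0.210. A median SD tends to be lower with fewer libraries, so 0.119 from 3 libraries does not show a smaller spread than 0.126 from 5. Replicate 3 stood at least 2-fold above all 8 other libraries in 406 of 17810 genes with a mean of at least 1 CPM, and at least 2-fold below them in 43. For the other 8 libraries the same 2 counts together came to between 8 and 103 genes. It lay at 72.7 on the second principal component (18.9% of the variance), where the other 8 libraries lay between -17.5 and -2.55.

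Each library was then placed between the doses with genes called in a refit without it. Called genes were dropped where they failed the low-count filter of all 9 libraries or changed sign when scaled over all 15. In the genes kept, the level of the library was expressed on a scale between the doses. On it 0 is the mean of the remaining 15 pM libraries and 1 is the mean of the remaining 150 pM libraries. The medians of the 150 pM libraries were 1.01, 1.02, 1.05, 0.887 and 0.915 for replicates 1 to 5, and 89.4% to 96.4% of the genes placed them nearer to 150 pM. At 15 pM replicates 1, 2 and 4 had medians of -0.19, 0.224 and -0.172, and 5.98% to 14.9% of the genes placed them nearer to 150 pM. Replicate 3 lay in the middle, at 0.559, with 3941 of 7240 genes (54.4%) nearer to 150 pM. Leaving it out raised the calls to 7266, 4166 higher and 3100 lower, among which 4785 of the 4933 calls were kept in their direction.

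**Figure D4:**
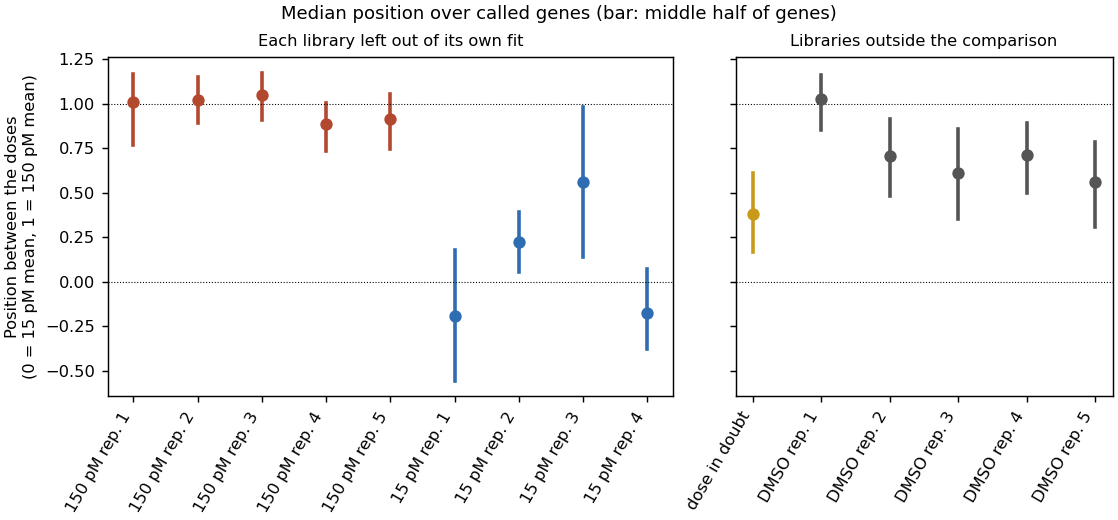
Median position of each library between the doses over called genes, from 0 (15 pM mean) to 1 (150 pM mean), with bars over the interquartile range of the genes; on the left each library was left out of the fit that chose its genes, and on the right are libraries outside the comparison. The 150 pM libraries lie between 0.887 and 1.05, and 15 pM replicate 3, at 0.559, stands apart from the other 15 pM libraries.

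The solvent libraries, which took no part in the fit, lay mostly between the doses. Over the 4933 called genes DMSO replicate 1 was at 1.025, level with 150 pM, and DMSO replicates 2 to 5 lay between 0.562 and 0.711. The mean of the 5 DMSO libraries fell between the dose means in 2876 of the 3116 called rises (92.3%) and in 1495 of the 1817 called falls (82.3%). It went past the 150 pM mean in 228 rises and 289 falls, and past the 15 pM mean in 12 rises and 33 falls. Rises of at least 2-fold had a median difference from DMSO of 0.54 log2 units at 150 pM and -1.12 at 15 pM. Called falls of at least 2-fold had medians of -0.55 at 150 pM and 0.71 at 15 pM. The genes were chosen for a difference between the doses, so these values describe where DMSO lay and test neither dose against it.

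In the described genes the DMSO libraries did not all take the same place (values scaled over all 15 libraries). Nfu_g_1_019702 was at 51.2 CPM in DMSO replicate 1, as high as at 150 pM, and at 1.28 to 5.80 CPM in replicates 2 to 5. Nfu_g_1_007596 was at 46.4 CPM in DMSO replicate 1 and between 23.7 and 29.3 CPM in the others. For Nfu_g_1_007753 DMSO replicates 1, 2, 3 and 5 held 0.128 to 1.18 CPM, as at 150 pM, while replicate 4 held 16.8 CPM. Nfu_g_1_018392 was at 8.78 CPM in DMSO replicate 1, within the range of the 150 pM libraries. DMSO replicates 2 to 5 lay between 10.9 and 12.3 CPM, above every 150 pM library, and all 5 lay below the 15 pM libraries. The dose values set beside DMSO here were scaled over the 9 libraries only.

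The number of falls depended on the analysis more than the number of rises. Rises at 150 pM numbered between 2225 and 4166, and falls between 1086 and 3181, over 22 alternatives that kept an adjusted p of 0.05 against no change. A test against a 1.5-fold change called 446 rises and 16 falls. Leaving out any 1 library left 3436 (without 15 pM replicate 4) to 7266 calls (without 15 pM replicate 3). Counting the library in doubt as 150 pM gave 3876 calls, and counting it as 15 pM gave 4707.

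**Figure D5:**
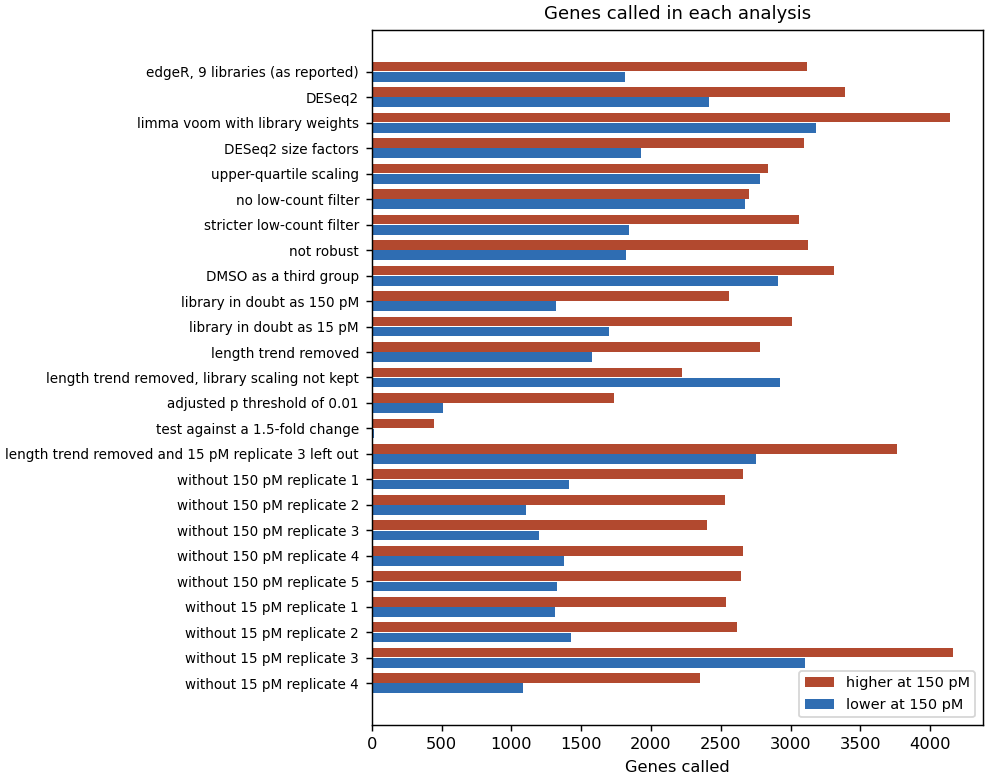
Number of genes called higher (red) and lower (blue) at 150 pM in the reported analysis (top) and in 24 alternatives below it. Rises outnumber falls in 23 of the 24, by little with upper-quartile scaling (2835 and 2782) or without the low-count filter (2701 and 2676), and falls outnumber rises with the length trend removed and library scaling not kept (2923 and 2225).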

How the data were processed

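Total RNA of killifish brain was prepared for sequencing, per the labels' protocols, with TruSeq RNA v2, a kit that keeps no strand. Per the submitters' processing notes, the tools were featureCounts 1.4.6-p4, STAR 2.4.1d and CASAVA 1.8.2. Their settings, build and annotation: not given in the sources used here. Raw counts, which the authors deposited, per gene for 26739 identifiers, are the base of all levels and tests. The authors also deposited RPKM values. Set against the counts of 6891 well-measured genes, these values match a single length per gene only when library totals are taken in turn down the rows (median largest deviation 4.04e-05 log2 units, against 0.237 with each library's own total). They served for gene length alone.

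The 9 libraries were analysed with edgeR 4.0.16 (R 4.3.3), using filterByExpr, TMM scaling and a robust quasi-likelihood fit, with 7 residual degrees of freedom before shrinkage. P-values were adjusted by Benjamini and Hochberg's method across every gene tested, with a threshold of 0.05, and fold changes are 150 pM over 15 pM. The 95% interval of a gene's fold reached 1.20-fold to either side in the median gene. DESeq2 1.42.0 and limma 3.58.1 were alternatives, as were other scalings, filters and thresholds and the removal of each library's length trend. The trend was first removed uncentred, which also rescaled the libraries. Centring it within each library, so that the scaling is kept, was added after that version had been seen, and both are reported. Tested on simulated counts with 200 changed genes, among 18841 tested, the fit found 36% of the 1.5-fold and 75% of the 2-fold changes, with 7 false calls (single draw, genes independent). The simulation changed a far smaller share of genes than the 26.0% called in the data. Recovery at an adjusted p threshold depends on that share, so these percentages do not give the recovery in the real comparison. No pair of libraries of a dose agreed within sampling noise (smallest chi-square per degree of freedom 7.11). Replicates were numbered in the order in which samples are listed, which pairs no libraries.

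The comparison, the gene lists and the tests were chosen with earlier results of these data known. Lists for complex I and other mitochondrial complexes, stress responses, glycolysis, ribosome, proteasome, immediate early and clock genes, and markers of brain and other cell types, could not be counted because 0 identifiers carried a symbol. The described genes follow a set rule: 2 per direction, the largest fold and the smallest p, among called genes with a mean of at least 1 CPM at each dose and libraries that do not overlap.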

Additional observations from a re-analysis of the deposited data

Results flagged for a closer look

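Dixon's gap test was run on 26 groups of 4 or 5 library values and marked 1 library in 5 of them. About 1 in 20 groups would be marked if groups were unselected and independent. All 5 concern the described genes, which were chosen for their folds or p-values, so the marks cannot be set against that rate. At 150 pM, Nfu_g_1_007753 stood at 4.1 CPM in replicate 2, apart from the other 4 libraries of that dose. At 15 pM, Nfu_g_1_018392 stood at 26.6 CPM in replicate 3. Among the DMSO libraries, replicate 1 was far above the others for Nfu_g_1_019702, at 51.2 CPM, and for Nfu_g_1_007596, at 46.4 CPM, and replicate 4 was far above the others for Nfu_g_1_007753, at 16.8 CPM. The library whose dose is in doubt, which no main comparison used, held Nfu_g_1_007753 at 55.3 CPM, above all 5 DMSO libraries and within the range of the 15 pM libraries.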

How the results depend on the processing

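The total of 4933 calls was 2245 at an adjusted p of 0.01 and 462 in the test against a 1.5-fold change, and stayed within 1.5 times in the other 22 alternatives. The 3116 rises were 1733 and 446 in those same analyses. The 1817 falls were 512 and 16 there, 3181 with limma voom and library weights, 2782 with upper-quartile scaling, 2912 with the DMSO libraries in the fit, 2923 (more than the rises, 2225) with the length trend removed and library scaling not kept, and 2750 with the length trend removed and 15 pM replicate 3 left out, an alternative added, like the removal that keeps the scaling (2779 rises, 1576 falls), after the data were seen. With 1 library left out the falls ranged from 1086 (without 15 pM replicate 4) to 3100 (without 15 pM replicate 3), with 1105 and 1195 without 150 pM replicates 2 and 3. The cause of these shifts was not tested. Falls of at least 2-fold numbered 77, and between 16 and 145 over the alternatives. The pseudo-F has no direction to keep, and its values (3.85 to 16.5) came from unlike distances and numbers of libraries, so they cannot be ranked. The difference in Spearman's rho with gene length (0.204 to 0.293) kept its direction in every alternative run. So did the difference in the share of the 50 most abundant genes (-2.09 to -0.601 percentage points, the 10 and 200 most abundant genes included). The pseudo-F and both differences kept an unadjusted exact permutation p under 0.05 in the alternatives run for them. For the share of the 50 most abundant genes this was fixed in advance where a library was left out. Its values per library do not change, and the doses lay fully apart (8.71% to 8.85% at 150 pM, 8.99% to 11.14% at 15 pM). Spearman's rho was also fully apart, so leaving out a library put it to little test. The log2 fold changes of 3 described genes passed in all 24 alternatives, and that of Nfu_g_1_007753 in 23. These genes were chosen for the largest folds or smallest p-values and the alternatives reuse the same libraries, so this does not describe calls in general. Of all calls, 67.9% (without 15 pM replicate 4) to 97.0% (without 15 pM replicate 3) were kept in their direction with 1 library left out. No paired analysis was possible because the labels give no replicate numbers that the doses share. Depth limits the low genes, of which only those with larger folds could pass.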

Other observations

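The 253 called genes whose 150 pM libraries all lay at least 2-fold above every 15 pM library were followed into the libraries outside the comparison. The scale runs from 0 (15 pM mean) to 1 (150 pM mean). DMSO replicate 1 had a median position of 1.03 and was nearer to 150 pM in 252 of the 253 genes. DMSO replicates 2 to 5 had medians between 0.368 and 0.545, and 26.9% to 57.3% of the genes placed them nearer to 150 pM. The library whose dose is in doubt had a median of 0.111 and was nearer to 150 pM in 4 of the 253. Over all 4933 called genes it lay at 0.38, nearer to 150 pM in 35.8% of them. Of the 9 called genes whose libraries parted as widely in the other direction, it was nearer to 150 pM in 1. DMSO replicates 1, 3 and 5 were nearer to 150 pM in all 9. Among these 9 are Nfu_g_1_007753 and the 4 genes of nearby rows with a log2 fold change below -5. Those genes moved together, so the 9 cannot be read as separate observations.

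The direction of calls was compared between nearby rows of the deposited table. Among 1472 pairs of called genes in adjacent rows of tested genes, 62.3% had the same direction, where 55.7% would if direction were unrelated, given how many of the calls paired at that distance were rises. The share was 56.2% at 2 rows apart (54.0% if unrelated), 54.0% at 5 (54.0%), 56.2% at 20 (53.9%) and 49.8% at 100 (53.3%). The order of the table is not explained in the sources used here, and these pairs are a description without a test.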
